A study of Danio rerio with 12 samples.

Results

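The genes described here are the globins of the zebrafish larval fin regenerate together with alas2: the red cell haemoglobin genes hbae3, hbbe1.1, hbbe2 and hbbe3, the muscle oxygen store myoglobin (mb), the cytoglobins cygb1 and cygb2, neuroglobin (ngb), and the red cell haem synthesis enzyme alas2. The members were chosen with earlier results of these data known. Probe sets were matched to them by gene symbol in the platform annotation, and every probe set carrying a member's symbol was taken. Of the 9 genes listed, 8 were matched, of 9025 genes that the annotation names on the array, by 10 of the 15502 probe sets tested. No probe set was matched to cygb2, which was not analysed here. The gene hbbe1.1 was measured only through 1 probe set that the annotation gives to 3 genes, hbbe1.1, hbbe1.2 and hbbe1.3, so these cannot be told apart.

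All fish were of the AB strain. Caudal fins were cut off at 2 days post fertilization, and the larvae were then kept for 1 h in water holding 0.5 ng/mL TCDD (a persistent dioxin that activates the aryl hydrocarbon receptor) or the solvent DMSO, and afterwards in clean water. Regrown tissue was taken at 2 or 3 days post amputation (dpa). The 4 groups, TCDD at 2 dpa, vehicle at 2 dpa, TCDD at 3 dpa and vehicle at 3 dpa, hold 3 Affymetrix arrays each, every array a pool of 150 fins labelled from 100 ng of RNA in 2 cycles of amplification. A group therefore describes pools and not single larvae, and differences between group means are judged against the spread between pools.

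Globins are small proteins that bind oxygen through a haem group. In zebrafish, embryonic alpha and beta haemoglobin chains (hbae and hbbe genes) fill the first red cells, where alas2 carries out the first step of haem synthesis. Myoglobin holds oxygen inside muscle fibres, neuroglobin is found mainly in neurons, and cytoglobin is known in mammals from fibroblast-like cells. In tissue taken whole, fewer cells of a type and less RNA per cell cannot be told apart.

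Every level below is a deposited ratio or the log2 of that ratio. For a probe set with a median ratio of 1, it is the signal relative to the median that probe set had among the 12 arrays. For a probe set with a lower median the divisor was not that median and is unknown. Ratios compare arrays for 1 probe set; they do not rank genes by abundance, and they cannot show whether a probe set lay above background. For the same reason the presence of fin tissue markers could not be checked as a level. Of the 10 probe sets, 8 had a median ratio of 1, and the other two, those of hbbe3 and ngb, had medians of 0.372 and 0.631. The arrays differed in other ways: the hybridisation control probe sets had a median log2 ratio between 0.246 and 0.335 on 4 arrays, the 3 of vehicle at 3 dpa and replicate 2 of TCDD at 3 dpa, and between -0.14 and 0.0086 on the other 8, which include all 6 arrays of 2 dpa. The log2 difference between the 5' and 3' control probe sets of GAPDH lay between 0.169 and 0.486 on TCDD arrays, against -0.10 to 0.082 on vehicle arrays. The part of the hybridisation level in the results was not tested beyond the block and the left-out arrays given with them. The GAPDH difference split the arrays by treatment without overlap, so its part cannot be told apart from that of TCDD.

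The first question was which globins differed between TCDD and vehicle fins on each day. Myoglobin and cytoglobin 1 were lower in TCDD fins on both days, mb by about 11 to 13 times and cygb1 by 4 to 6 times. The haemoglobin genes hbae3, hbbe1 and hbbe2 had higher mean ratios in TCDD fins at 2 dpa without passing the test. The measured signals of hbbe3, alas2 and ngb differed little. No member differed detectably between 2 and 3 dpa.

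Myoglobin (mb, Entrez 393558, 1 probe set) had ratios of 0.405, 0.380 and 0.202 in TCDD fins at 2 dpa, against 3.34, 2.95 and 6.37 in vehicle fins of that day. At 3 dpa its ratios were 0.284, 0.378 and 0.279 in TCDD fins, against 6.49, 3.74 and 1.60 in vehicle fins. All 6 TCDD pools lay below all 6 vehicle pools, and the widest spread within a group was that of vehicle at 3 dpa. Mean log2 ratios were -1.67 ± 0.55 in TCDD fins and 1.99 ± 0.60 in vehicle fins at 2 dpa (SD, n = 3 each). The limma fit put mb 12.6-fold lower in TCDD fins at 2 dpa (95% interval 5.96 to 26.8, log2 difference -3.66 ± 0.49 SE, adjusted p = 0.0215). At 3 dpa mean log2 ratios were -1.69 ± 0.25 in TCDD fins and 1.76 ± 1.02 in vehicle fins (SD, n = 3 each). There mb was 10.9-fold lower (5.14 to 23.1, log2 difference -3.45 ± 0.49 SE, limma adjusted p = 0.0185).

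Averaged over both days, mb was 11.7-fold lower in TCDD fins (6.89 to 19.9, log2 difference -3.55 ± 0.34 SE, limma adjusted p = 0.0010). By p it stood 15th of the 15502 probe sets in that comparison. This averaged difference passed the threshold under each of the 19 alternatives run, with adjusted p between 0.00018 and 0.0083. The single-day calls were less firm: mb was no longer called at 2 dpa without any 1 of the 6 arrays of that day (adjusted p between 0.0598 and 0.101). At 3 dpa it was no longer called without replicate 1 or 2 of vehicle (adjusted p = 0.0525 and 0.0696) or replicate 1 or 3 of TCDD (adjusted p = 0.0533 and 0.0682). Within the high hybridisation level, which holds replicate 2 of TCDD and the 3 vehicle pools of 3 dpa, the ratio was 0.378 in the TCDD pool, against 1.60 to 6.49 in the vehicle pools. With that level as a block, the 3 dpa difference is that 1 TCDD pool against the 3 vehicle pools, the lone pool being assumed to vary like the other groups; it was -3.16 for mb (limma adjusted p = 0.0749). On the 6 arrays of 3 dpa alone the adjusted p was 0.134.

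Cytoglobin 1 (cygb1, Entrez 246090) has a pair of probe sets from 1 transcript cluster, which are not independent measurements. The first, with the suffix _at, had ratios of 0.495, 0.692 and 0.375 in TCDD fins at 2 dpa, against 2.82, 1.92 and 2.18 in vehicle fins. On the later day the ratios were 0.332, 0.608 and 0.401 in TCDD fins, against 2.68, 1.99 and 1.31 in vehicle fins. As for mb, the groups did not overlap on either day, and the lowest vehicle pool was replicate 3 of 3 dpa for both genes. The fit gave cygb1 4.51-fold lower in TCDD fins at 2 dpa (2.76 to 7.39, limma adjusted p = 0.0336) and 4.41-fold lower at 3 dpa (2.70 to 7.23, limma adjusted p = 0.0235). Over both days the difference was -2.16 ± 0.23 SE on the log2 scale, 4.46-fold lower (3.15 to 6.32, limma adjusted p = 0.0015).

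The second cygb1 probe set, with the suffix _x_at, had ratios of 0.436, 0.675 and 0.202 in TCDD fins at 2 dpa, against 2.42, 2.28 and 2.15 in vehicle fins. The 3 dpa ratios were 0.269, 0.597 and 0.235 in TCDD fins, against 2.75, 2.22 and 1.32 in vehicle fins. Replicate 2 was the highest TCDD pool on each day in both probe sets. That suffix marks a probe set with probes that may also match other transcripts. It was 5.91-fold lower in TCDD fins over both days (3.56 to 9.81, limma adjusted p = 0.0045). It passed at 3 dpa (log2 difference -2.58, limma adjusted p = 0.0427) and not at 2 dpa (-2.54, limma adjusted p = 0.0884). Over both days each cygb1 probe set kept its call under each of the 19 alternatives, with adjusted p of at most 0.0098 for the first and 0.020 for the second. The single-day calls were again less firm. At 2 dpa the first probe set lost its call without any 1 of the 6 arrays of that day, without replicate 2 of vehicle at 3 dpa, or without replicate 1 or 3 of TCDD at 3 dpa (adjusted p between 0.0529 and 0.161). At 3 dpa it lost it without replicate 1 or 2 of vehicle (adjusted p = 0.0801 and 0.0729) or replicate 1 or 3 of TCDD (adjusted p = 0.0614 and 0.0788). The second kept its 3 dpa call only without replicate 2 or 3 of TCDD at 2 dpa or replicate 2 of TCDD at 3 dpa, and without any other array its adjusted p lay between 0.0507 and 0.150. Under the hybridisation block, again 1 TCDD pool against 3 vehicle pools, the 3 dpa differences were -1.65 and -1.75 on the log2 scale and neither passed (limma adjusted p = 0.104 and 0.207). On the arrays of the compared groups alone the adjusted p at 3 dpa was 0.140 and 0.157, and that of the first probe set at 2 dpa 0.0645.

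**Figure D1:**
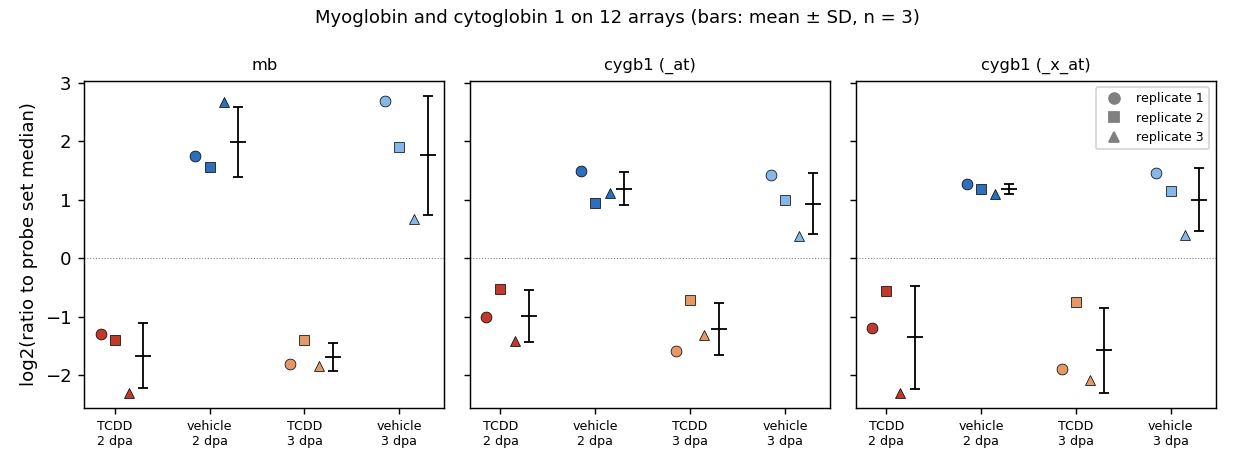
Log2 of the deposited ratio (vertical axis) of mb and the 2 cygb1 probe sets in each pool, by group, with TCDD left of vehicle on each day. Circles, squares and triangles are replicates 1, 2 and 3, and bars are the mean ± SD (n = 3). Every TCDD pool lies below every vehicle pool in each panel, with mb between 0.202 and 0.405 as a ratio in TCDD pools, against 1.60 to 6.49 in vehicle pools.

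Among all 10 globin and alas2 probe sets, 2 were called at 2 dpa, against 0.161% of all probe sets, and both were lower in TCDD fins, against 0.0710% called lower. At 3 dpa 3 were called, all lower, against 0.574% of all probe sets called and 0.290% called lower. Over both days the same count of 3 was called lower, against 3.20% of all probe sets, and 0 were called higher, against 1.80%. In each comparison these are the probe sets of mb and cygb1. The TCDD pools lay wholly below the vehicle pools for 3 member probe sets at 2 dpa, 3 dpa and over both days, against 11.8%, 8.30% and 2.70% of all probe sets. They lay wholly above the vehicle pools for 4 at 2 dpa, against 8.28% of all probe sets, those of hbae3, hbbe1 and hbbe2. At an unadjusted limma p under 0.05 there were 7 at 2 dpa, 3 at 3 dpa and 7 over both days. Among all 15502 probe sets the counts were 1583, 2434 and 3333. The cygb1 pair and the hbae3 pair each come from 1 transcript cluster, so the member counts are not of independent measurements. They are a description and no test, since the members were chosen with earlier results of these data known.

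The red cell globins behaved otherwise. The alpha chain gene hbae3 (Entrez 30601) had ratios of 1.58, 4.05 and 2.10 in TCDD fins at 2 dpa on its _at probe set, against 1.01, 0.910 and 0.0915 in vehicle fins. At 3 dpa hbae3 stood at 1.24, 0.631 and 2.02 in TCDD fins, against 0.926, 0.989 and 0.818 in vehicle fins. The groups of 2 dpa did not overlap and those of 3 dpa did. Replicate 3 of vehicle at 2 dpa was far below the rest, and the highest and lowest ratios within that group differed 11.0-fold, against 1.21-fold in vehicle at 3 dpa. The log2 difference was 2.44 at 2 dpa (95% interval 0.61 to 4.26, limma adjusted p = 0.335) and 0.36 at 3 dpa (-1.47 to 2.18, limma adjusted p = 0.900). Averaged over both days it was 1.40 (0.11 to 2.69, limma adjusted p = 0.196). Without replicate 3 of vehicle the 2 dpa difference was 1.31, so that 1 pool carries much of it.

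The other hbae3 probe set, with the suffix _s_at, had ratios of 1.74, 3.13 and 1.64 in TCDD fins at 2 dpa, against 0.978, 1.02 and 0.538 in vehicle fins. The highest and lowest of these vehicle ratios differed 1.90-fold, against 11.0-fold on the _at probe set. At 3 dpa the ratios were 1.21, 0.582 and 1.82 in TCDD fins, against 0.777, 0.749 and 0.709 in vehicle fins. The vehicle pools were again close together at 3 dpa, and replicate 2 of TCDD lay below them. Its log2 difference was 1.35 at 2 dpa (0.44 to 2.26, limma adjusted p = 0.283), 0.55 at 3 dpa (-0.37 to 1.46, limma adjusted p = 0.591) and 0.95 over both days (0.30 to 1.59, limma adjusted p = 0.0899). Over both days it passed without replicate 2 of TCDD at 3 dpa (1.17, limma adjusted p = 0.0204) and with arrays weighted by quality (1.01, limma adjusted p = 0.0268). With the hybridisation level as a block, where replicate 2 is the only TCDD pool behind the 3 dpa value, it was 0.50 (limma adjusted p = 0.374), and -0.36 at 3 dpa.

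The beta chain probe set shared by hbbe1.1, hbbe1.2 and hbbe1.3 had ratios of 1.38, 3.49 and 2.03 in TCDD fins at 2 dpa, against 1.11, 0.911 and 0.074 in vehicle fins. At 3 dpa they were 1.09, 0.503 and 2.06 in TCDD fins, against 0.752, 0.839 and 0.575 in vehicle fins. The order of the pools within each TCDD group was that of the hbae3 _at probe set: replicate 2 was the highest at 2 dpa and the lowest at 3 dpa. The log2 difference was 2.34 at 2 dpa (0.30 to 4.38, limma adjusted p = 0.419) and 0.55 at 3 dpa (-1.49 to 2.58, limma adjusted p = 0.854). Averaged over both days it was 1.44 (0.0026 to 2.89, limma adjusted p = 0.232). Leaving out replicate 3 of vehicle at 2 dpa brought the 2 dpa difference to 1.09.

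Across the 12 arrays, the log2 ratios of hbae3 (_at) and of the shared hbbe1 probe set had a Pearson correlation of 0.993 (permutation p = 2e-05, the smallest these permutations can give, 0.00012 adjusted over 6 relations). Spearman's rho was 0.965 (permutation p = 2e-05, 0.00012 adjusted). Without the 2 arrays farthest from the median of hbae3, r was 0.970 over 10 arrays, and over the 8 arrays of the low hybridisation level it was 0.996. In the gene order of the GRCz12tu assembly these genes lie in 1 cluster, with 1 coding gene between hbae3 and hbbe1.3 and 5 between hbae3 and hbbe1.1. Between hbae3 and hbbe2, r was 0.557 (permutation p = 0.0386, 0.116 adjusted) and rho 0.476 (permutation p = 0.121, 0.263 adjusted), with r = 0.506 without the 2 farthest arrays and 0.641 over the low level. The correlation with hbae3 was -0.0092 for hbbe3 (permutation p = 0.887) and 0.179 for alas2 (permutation p = 0.558). All permutations of this paragraph shuffled the 12 arrays without regard to group. These correlations therefore mix differences between groups with variation between pools of a group.

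**Figure D2:**
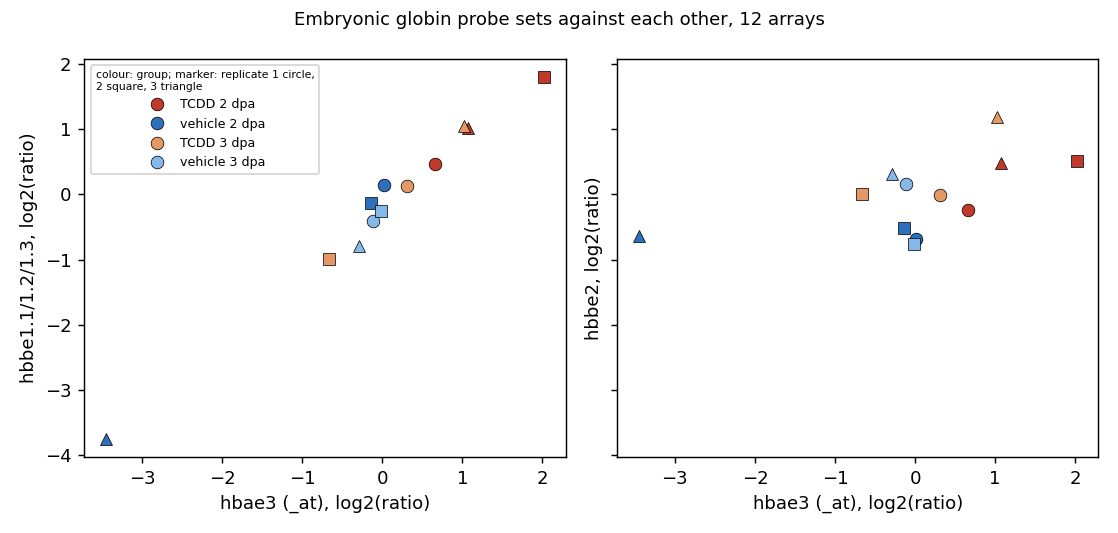
Log2 ratio of the shared hbbe1 probe set and of hbbe2 (vertical axes) against that of hbae3 (_at, horizontal axes), 1 point for each of the 12 arrays; colours are the 4 groups and shapes the replicates. The hbbe1 probe set follows hbae3 over the whole range (r = 0.993, n = 12), including the lowest pool, replicate 3 of vehicle at 2 dpa.

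The beta chain gene hbbe2 (Entrez 405772) had ratios of 0.850, 1.42 and 1.40 in TCDD fins at 2 dpa, against 0.621, 0.700 and 0.641 in vehicle fins. At 3 dpa hbbe2 stood at 0.994, 1.01 and 2.27 in TCDD fins, against 1.11, 0.590 and 1.25 in vehicle fins. The pools of 2 dpa did not overlap and the vehicle pools of that day were close together, whereas at 3 dpa the groups overlapped. The log2 difference was 0.87 at 2 dpa (0.05 to 1.68, limma adjusted p = 0.461), 0.49 at 3 dpa (limma adjusted p = 0.590) and 0.68 over both days (0.10 to 1.26, limma adjusted p = 0.163).

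The gene hbbe3 (Entrez 30596), the neighbour of hbbe2 with 0 coding genes between them, had ratios of 0.369, 0.373 and 0.362 in TCDD fins at 2 dpa, against 0.358, 0.376 and 0.367 in vehicle fins. At 3 dpa hbbe3 stood at 0.375, 0.380 and 0.386 in TCDD fins, against 0.570, 0.362 and 0.371 in vehicle fins. Apart from replicate 1 of vehicle at 3 dpa the 12 arrays were nearly level. The averaged log2 difference was -0.08 (-0.31 to 0.16, limma adjusted p = 0.754). A probe set whose median stays below 1 is one that the deposited scaling did not bring to 1, and its signal over background is unknown.

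The haem enzyme gene alas2 (Entrez 64607) had ratios of 0.987, 1.05 and 1.05 in TCDD fins at 2 dpa, against 0.988, 1.04 and 0.975 in vehicle fins. At 3 dpa they were 0.962, 1.06 and 1.00 in TCDD fins, against 1.2, 0.972 and 0.999 in vehicle fins. The groups overlapped on both days, and the averaged log2 difference was -0.01 (-0.16 to 0.14, limma adjusted p = 0.955). This interval runs from about 1.12-fold lower to 1.1-fold higher in TCDD fins. It describes the measured signal only, since the signal of alas2 over background is unknown.

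Neuroglobin (ngb, Entrez 100000711) had ratios of 0.631, 0.658 and 0.592 in TCDD fins at 2 dpa, against 0.587, 0.631 and 0.571 in vehicle fins. At 3 dpa they were 0.567, 0.670 and 0.706 in TCDD fins, against 0.605, 0.664 and 0.803 in vehicle fins. The groups overlapped on both days, and the averaged log2 difference was -0.01 (-0.20 to 0.18, limma adjusted p = 0.973). As for hbbe3, the median of this probe set was below 1 and its signal over background is unknown.

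**Figure D3:**
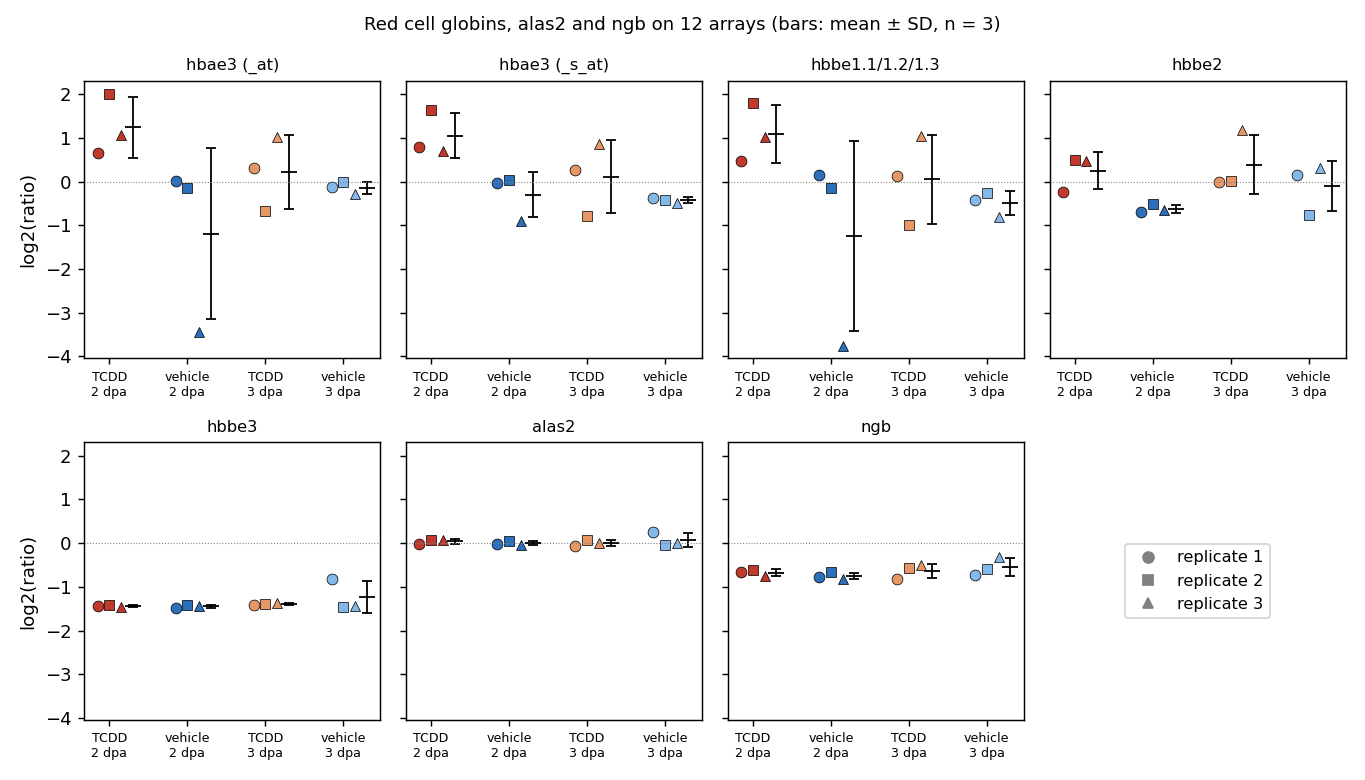
Log2 of the deposited ratio (vertical axis) of the red cell globin probe sets, alas2 and ngb in each pool, by group, with TCDD left of vehicle on each day; bars are the mean ± SD (n = 3). Replicate 3 of vehicle at 2 dpa is far below the other pools for hbae3 (_at) and hbbe1 (ratios 0.0915 and 0.074). For hbae3 (_s_at) it is at 0.538, close to replicate 2 of TCDD at 3 dpa (0.582). The pools of hbbe3 and alas2 lie nearly level.

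The members therefore varied very unequally among the 12 arrays. The highest ratio was 47.1 times the lowest for the shared hbbe1 probe set, 44.2 times for hbae3 (_at), 32.1 times for mb and 8.47 and 13.6 times for the cygb1 probe sets. The second hbae3 probe set (_s_at) spanned 5.82 times and hbbe2 3.84 times. Both widest spans rest on 1 array: without replicate 3 of vehicle at 2 dpa they were 6.93 for hbbe1 and 6.42 for hbae3 (_at), below the 32.1 of mb. The span was 1.59 times for hbbe3, 1.42 times for ngb and 1.25 times for alas2. For mb most of this lay between TCDD and vehicle, since its SD over all arrays was 1.94 (log2) and within groups 0.66. For hbae3 (_at) the same SDs were 1.32 and 1.12, and for the hbbe1 probe set 1.39 and 1.26. Without that vehicle pool the SDs were 0.77 over all arrays and 0.59 within groups for hbae3 (_at), and 0.84 and 0.67 for hbbe1. The within-group SDs then stood at the 94.5 and 96.3 percentiles of all probe sets, against 99.4 and 99.6 with it.

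**Figure D4:**
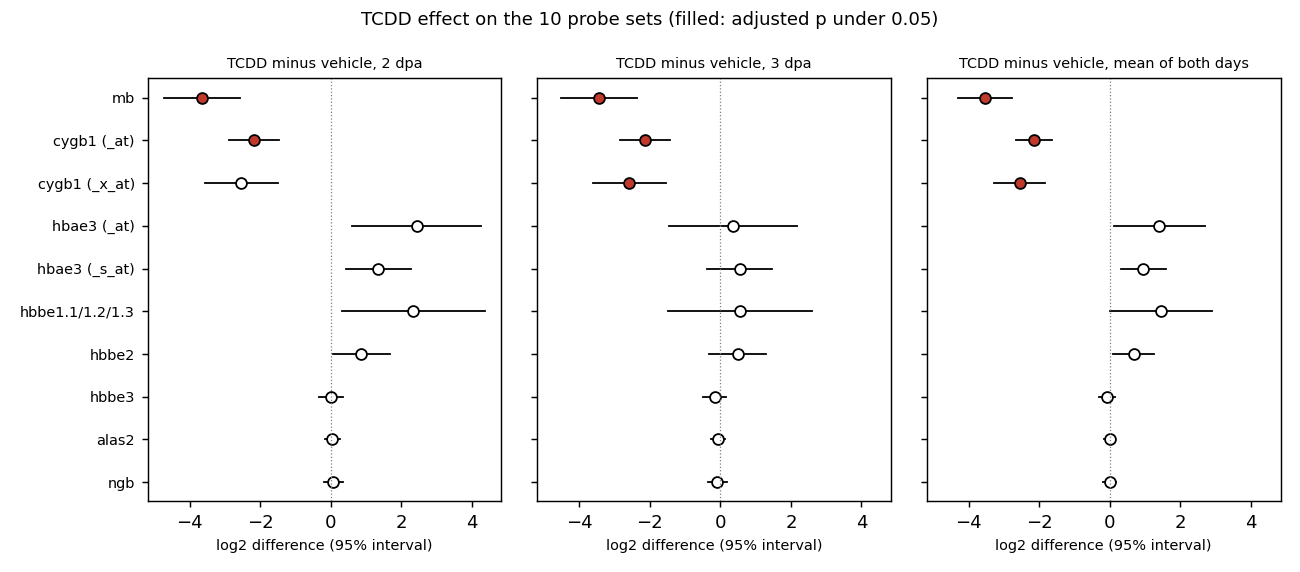
Log2 difference of TCDD minus vehicle (horizontal axis) for the 10 member probe sets at 2 dpa, at 3 dpa and as the mean of both days, with 95% intervals; filled points have a limma adjusted p under 0.05. Filled points are those of mb and cygb1, all to the left of 0, and the intervals of hbae3 (_at) and hbbe1 are the widest.

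The next question was whether the members changed between the days. In TCDD fins 0 of the 10 probe sets were called between 3 and 2 dpa by limma, against 0% of all probe sets. At an unadjusted limma p under 0.05 there was 1, against 621 of all 15502. That 1 was hbae3 (_s_at), with a log2 difference of -0.93 at 3 against 2 dpa (-1.84 to -0.02, limma adjusted p = 0.983). In vehicle fins 0 were called by limma, against 0% of all probe sets, and 0 had an unadjusted p under 0.05, against 578 of all 15502. The mb difference between days was -0.02 in TCDD fins (-1.10 to 1.06) and -0.23 in vehicle fins (-1.32 to 0.85), intervals that leave room for a change of over 2-fold. In TCDD fins the pools of 1 member, hbbe3, lay wholly higher at 3 dpa, against 3.43% of all probe sets, with ratios of 0.375 to 0.386 at 3 dpa and 0.362 to 0.373 at 2 dpa.

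The effect of TCDD was also compared between the days. By limma 0 members differed in it, against 0% of all probe sets, and 0 had an unadjusted p under 0.05, against 226 of all 15502. The TCDD effect at 3 dpa minus that at 2 dpa was 0.21 for mb (-1.32 to 1.74), 0.03 for cygb1 on its first probe set (-0.97 to 1.04) and -2.08 for hbae3 on its first (-4.66 to 0.50). For the hbbe1 probe set it was -1.80 (-4.68 to 1.09). The wide intervals of the haemoglobin genes do not settle whether their TCDD effect was the same on both days.

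Other genes of red cells were measured to place these values. Of 12 further haemoglobin genes listed, 5 had a probe set by symbol outside the members, on 5 probe sets that include shared ones. The listed hbbe1.2 and hbbe1.3 share the member probe set given above, which was not counted here. Among the 5 probe sets limma called 0 over both days, with 0 at an unadjusted p under 0.05, against 3333 of all 15502. The adult alpha gene hbaa1 had an averaged log2 difference of 0.12 and the adult beta gene hbba2 of 0.02. Their median ratios were 0.408 and 0.691, below 1 as for hbbe3 and ngb, and their signal over background is unknown. A pair of probe sets shared by hbae1.1 and hbae1.2, embryonic alpha genes of the same cluster as hbae3, had averages of -0.18 and 0.20. The estimates of each by day had opposite signs. The first was at 0.18 at 2 dpa and -0.54 at 3 dpa, and the second at 0.62 at 2 dpa (limma adjusted p = 0.486) and -0.22 at 3 dpa (limma adjusted p = 0.785). The second was at -0.79 for 3 against 2 dpa in TCDD fins (limma adjusted p = 0.983). The TCDD effect at 3 dpa minus that at 2 dpa was -0.73 (-1.54 to 0.09) and -0.84 (-1.72 to 0.03), neither called by limma. A change of sign between the days is therefore not settled. The median of the 5 was 0.07, against 0.00 for all probe sets.

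Among red blood cell markers outside the globins and alas2, 14 of 21 genes had 15 probe sets. Over both days 1 was called higher in TCDD fins, against 1.80% of all probe sets, and 0 lower, against 3.20%. The 1 was nt5c3a, a nucleotidase whose loss affects red cells in people, at 0.48 (limma adjusted p = 0.0227), and it kept this call in 9 of 12 fits with an array left out. A second nt5c3a probe set was at 0.24 and not called. The master red cell factor gata1a was at 0.04, the anion exchanger slc4a1a at 0.15 and the red cell carbonic anhydrase cahz at -0.90 (limma adjusted p = 0.0715), none of them called. The list's median was 0.03, against 0.00 for all probe sets, and its median log2 ratio per array ranged from -0.51 to -0.20 in TCDD and -0.37 to -0.28 in vehicle at 2 dpa. At 3 dpa it ranged from -0.53 to -0.21 in TCDD and -0.49 to -0.32 in vehicle. The list's median log2 ratio thus lay below 0 on every array, so some of its probe sets had medians below 1. Signal over background is unknown for these. The part of red cell number in the globin values was not tested.

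Of 26 genes of haem synthesis and red cell iron handling, 14 were measured. Over both days 1 was called higher in TCDD fins, against 1.80% of all probe sets, and 0 lower, against 3.20%. The 1 was slc25a38b, of the mitochondrial glycine carrier family that feeds haem synthesis, at 0.50 (limma adjusted p = 0.0371). It was called in 3 of 12 fits with an array left out. The non-red-cell counterpart of alas2, alas1, was at 0.91 and not called (limma adjusted p = 0.0879). The median of this list was 0.00, the same as for all probe sets.

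Of 29 genes of the response to low oxygen, which the HIF transcription factors drive, 17 were measured on 21 probe sets. Over both days 1 was called higher in TCDD fins, against 1.80% of all probe sets, and 2 lower, against 3.20%. The glycolysis regulator pfkfb3 was at 1.58 (limma adjusted p = 0.0467) on 1 probe set and at 0.01 on another, its relative pfkfb4b at -1.09 (limma adjusted p = 0.0228), and the collagen hydroxylase subunit p4ha1b at -1.28 (limma adjusted p = 0.0417). These kept their call in 2, 6 and 1 of 12 fits with an array left out. The blood vessel growth factor vegfaa was at 0.87 and not called (limma adjusted p = 0.0508). The median of the list was 0.12, against 0.00 for all probe sets. At 2 dpa limma called 0, with 3 at an unadjusted p under 0.05, against 1583 of all 15502 probe sets. On that day 18 of the 21 lay above 0, where 48.3% of all probe sets did. Some genes have several of the 21, so these are not independent. The list's median log2 ratio per array was then between -0.00053 and 0.042 in TCDD and -0.28 and -0.014 in vehicle, narrowly without overlap. At 3 dpa it lay between -0.078 and 0.172 in TCDD and -0.15 and -0.025 in vehicle, with overlap. Of all single probe sets, 8.28% lay wholly higher in TCDD pools at 2 dpa. The part of low oxygen in the globin values was not tested.

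Markers of the cell types in which mb and cygb1 are known were set beside their values. Of 26 skeletal muscle genes 20 were measured on 25 probe sets. Over both days limma called 0, with 0 at an unadjusted p under 0.05, against 3333 of all 15502 probe sets. All 25 had an averaged difference above 0, between 0.02 and 0.72, where 51.3% of all probe sets were above 0. Some genes have several of the 25, so these are not independent. The median log2 ratio of these 25 ranged per array from -0.32 to 0.17 in TCDD and -0.34 to -0.10 in vehicle at 2 dpa, and from -0.31 to 0.62 in TCDD and -0.25 to -0.04 in vehicle at 3 dpa. The groups overlapped on both days. The highest medians were those of TCDD replicate 3 at 3 dpa (0.62) and TCDD replicate 1 at 2 dpa (0.17). The other TCDD pools lay between -0.32 and -0.03. Signal over background is unknown for the muscle probe sets. The part of muscle tissue in the mb values was not tested. Of 7 cardiac genes 3 were measured. Over both days limma called 0 of the cardiac probe sets, with 0 at an unadjusted p under 0.05, against 3333 of all 15502. Their median log2 ratio per array lay between -0.59 and -0.27, so some cardiac probe sets had medians below 1, with unknown signal over background.

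Of 23 fin mesenchyme and fibroblast genes 16 were measured on 22 probe sets, of which 6 were lower in TCDD fins over both days, where 3.20% of all probe sets were, and 0 higher. The other 16 did not pass, and 4 of the 22 had a difference above 0. Between 5 and 7 were lower when 1 array was left out. This list, like the members and the other lists, was chosen with earlier results of these data known. Its counts beside the share of all probe sets are a description and no test. The largest called difference was that of the matrix proteoglycan kera at -2.90 (limma adjusted p = 2.59e-05), followed by the matrix protein postnb at -2.11 and -1.32 on its pair of probe sets (limma adjusted p = 0.0077 and 0.0010) and the collagen gene col1a2 at -1.32 (limma adjusted p = 0.0246, called in 7 of 12 fits with an array left out). The homeobox gene prrx1b at -1.31 and the matrix protein gene tgfbi at -1.17 were also called lower (limma adjusted p = 0.0050 and 0.0045). Each kept its call in 12 of 12 fits with an array left out. A second col1a2 probe set was at -1.21 (limma adjusted p = 0.0508) and the pair for col1a1a at -0.18 and -0.20, none of them called. Of other homeobox genes, prrx1a was at -0.20 and msx1b and msx2b at 0.24 and 0.27, none of them called. The list's median was -0.28, against 0.00 for all probe sets. Its median log2 ratio per array lay between -0.37 and -0.01 in TCDD and 0.15 and 0.25 in vehicle at 2 dpa, and between -0.45 and -0.36 in TCDD and 0.12 and 0.14 in vehicle at 3 dpa. The part of mesenchyme cell number in the mb and cygb1 values was not tested.

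Of 18 endothelial genes 6 were measured. Over both days 1 was called lower in TCDD fins, against 3.20% of all probe sets, and 1 higher, against 1.80%. The flow-responsive factor klf2a was at -2.90 (limma adjusted p = 0.0050) and its relative klf2b at 0.97 (limma adjusted p = 0.0467), called in 12 and 2 of 12 fits with an array left out. The others were kdrl at 0.15, tie1 at 0.19, tek at 0.03 and aqp8a.1 at 0.35, none of them called. The list's median was 0.17, and 5 of the 6 lay above 0. Of 16 neural genes, listed beside ngb, 13 were measured on 20 probe sets. Over both days limma called 0 of these, with 2 at an unadjusted p under 0.05, against 3333 of all 15502 probe sets. Their median was 0.14, and their signal over background is unknown.

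**Figure D5:**
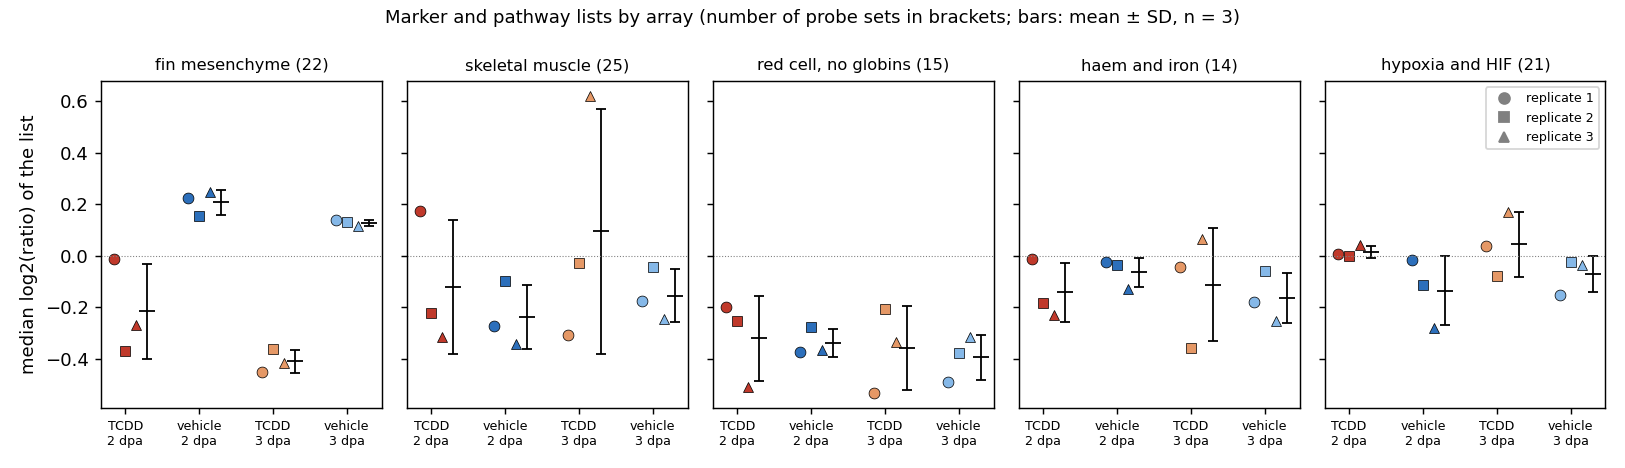
Median log2 ratio per array (vertical axis) of 5 gene lists, by group, with TCDD left of vehicle on each day: fin mesenchyme (22 probe sets), skeletal muscle (25), red cell markers without globins (15), haem and iron (14) and hypoxia (21). The TCDD pools lie below the vehicle pools on both days for fin mesenchyme and narrowly above them at 2 dpa for hypoxia. The groups overlap on both days for skeletal muscle and red cell markers.

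The probe sets whose log2 ratio followed the members most closely were ranked by Pearson r over the 12 arrays, as a description, among 10786 probe sets with 1 symbol outside the members. For mb they were the chemokine gene ccl34b.1 (0.959), nipsnap3a (0.958), the ATP synthase subunit atp5mc1 (0.955), the retinol carrier rbp4 (0.953) and kera (0.951). For cygb1 they were the collagen gene col15a1a (0.956), the coagulation inhibitor tfpia (0.956), birc6-as2 (0.955), the homeobox gene msx1a (0.947) and nipsnap3a (0.945). These values share the split between TCDD and vehicle arrays. For the median of the 5 red cell globin probe sets they were agr1 (0.914), nlrp16 (0.879), stk17al (0.865), defbl1 (0.842) and gadd45aa (0.836).

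After each group's mean was taken off, the closest to mb were srd5a2a (0.914), firrm (0.899), dcdc2b (0.898), emc9 (0.897) and kif15 (0.877). The closest to cygb1 were usf1 (0.970), ftcd (0.948), kxd1 (0.938), tfpia (0.937) and nipsnap2 (0.932). The closest to the red cell globins were ccdc137 (0.978), med28 (0.949), agr1 (0.902), wls (0.898) and nob1 (0.898). Of the genes listed for mb and cygb1, tfpia alone appears for the same member both with and without the group means, and for the red cell globins agr1 does. With 12 arrays and this many probe sets, such values carry no test.

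The log2 ratios of mb and cygb1 (_at) form separate TCDD and vehicle clusters, so their correlation was taken within each. It was 0.752 over the 6 TCDD arrays (exact permutation p = 0.0778, 0.117 adjusted over 6 relations) with rho 0.657 (exact permutation p = 0.175, 0.263 adjusted). Over the 6 vehicle arrays it was 0.751 (exact permutation p = 0.075, 0.117 adjusted) with rho 0.657 (exact permutation p = 0.175, 0.263 adjusted). Without the 2 arrays farthest from the median of mb, r was 0.955 in TCDD and -0.0012 in vehicle over 4 arrays each, so the relation in vehicle fins rests on those 2.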

How the data were processed

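Per the submitters' processing notes, the authors computed signals with GCRMA (version not given in the sources used here); the deposited values are linear ratios. Division by a probe set's median over the 12 arrays was read from the values. Of 15617 probe sets 12064 have a median of 1 (tolerance 1e-06), 3553 a lower and 0 a higher one. The divisor of those 3553 was not their median and is unknown. Signal over background is unknown, and the number of arrays limits the precision.

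After 115 control probe sets were left out, log2 ratios (no pseudocount; lowest ratio 0.000773) of 15502 probe sets were fitted with limma 3.58.1 (lmFit, eBayes; R 4.3.3) as 4 group means over all 12 arrays, with 8 residual and 2.08 prior degrees of freedom. Tests were two-sided, and calls used a Benjamini-Hochberg adjusted p under 0.05 over all probe sets. The fit was tested on simulated data. The platform annotation gave 1 symbol to 10795 probe sets, several to 135 and none to 4572; 10711 were matched by Entrez identifier to the GRCz12tu gene table, 84 were not, and 1 symbol changed. The table was used for names and gene order only. Correlations used permutation tests in scipy 1.17.1.

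All probe sets of every member are given, the called genes of each list (at most 4 with the largest change), and the 5 most alike by correlation; other list genes named were chosen after their values were seen. The members and lists were chosen with earlier results of these data known. Alternatives changed the arrays used, pseudocount (0.1), centring, normalization, blocks, filter, array weights and 1 array at a time. Labels call the pools separate groups of 150 fins, with no other word on their independence.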

Additional observations from a re-analysis of the deposited data

How the results depend on the processing

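No called value reversed under any alternative. Of 1168 values of single member probe sets under alternatives, 1124 stayed on the same side of the threshold, 39 lost and 5 gained a call. Most of the 1168 belong to comparisons that were not called in the main fit. All 39 lost calls were single-day calls of mb and cygb1, and 72 uncalled values changed sign. With the arrays of the compared groups only, 1 member probe set was called at 2 dpa (2 in the fit over all arrays) and 0 at 3 dpa (3 in the fit over all arrays); with the hybridisation level as a block, 0 at 3 dpa, where that fit sets 1 TCDD array against 3 vehicle arrays. With 1 array left out, between 0 and 2 were called at 2 dpa, 0 and 3 at 3 dpa, 3 and 4 over both days, and 0 and 0 for the days and their difference. The fits on compared groups or with an array left out use fewer arrays; under the block the 3 dpa differences were also smaller (mb -3.16, cygb1 -1.65 and -1.75). Other causes were not tested. Replicate numbers were not stated to pair pools, and same-numbered deviations correlated between -0.25 and 0.493; 5 of 6 arrays at 2 dpa and 2 of 6 at 3 dpa correlated best with their own number in the other treatment. With a replicate block 3 member probe sets were called at 2 dpa, 3 at 3 dpa and 3 over both days. Over all probe sets, array weights called 247 at 2 dpa (25 without), 426 at 3 dpa (89) and 1681 over both days (775). Quantile normalization called 163 at 2 dpa, 73 higher and 90 lower (14 and 11 without), and 1168 over both days. The hybridisation block called 39, 217 (173 higher and 44 lower; 44 and 45 without) and 387 (227 higher and 160 lower; 279 and 496 without), the compared groups alone 6 at 3 dpa, the replicate block 147 at 3 dpa. With 1 array left out the counts were 8 to 49, 28 to 391 and 296 to 1471. Leaving out the fifth of probe sets with the lowest mean ratio removed hbbe3 and ngb.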
